A study of Mus musculus with 21 samples.

Results

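The Fc gamma receptors and their signalling chain comprised 5 genes of the 18217 for which an array probe could be matched to a gene symbol: Fcgr1, Fcgr3 and Fcgr4, which encode the activating IgG receptors of the mouse, Fcgr2b, which encodes the inhibitory one, and Fcer1g, which encodes the common gamma chain. They were chosen by name, and each was followed through its brightest probe over 7 fractions sorted from marrow of C57BL/6 mice. Fcgr2b had 3 probes and the other members 1 each. All 5 members were tested.

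The fractions were measured with 3 one-colour arrays each. According to the labels, KLS was lin- ckit+ sca1+. PreMegE was also CD150+, CD105- and FGCrI/II-, and CFUe was CD150-, CD105- and FCGrI/II-. PreGM carried the same antigens as CFUe in the labels, with the receptors spelled FGCrI/II-. GMP was lin- ckit+ sca1+ and CD150-, and the only fraction labelled FCGrI/II+. Ter119 cells were CD71+ and Ter119+, and Mac1Gr1 cells were Mac1+ and Gr1+, and these 2 fractions, like KLS, were not gated on Fc receptors. No treatment or engineered allele was named and the age of the mice was not given in the sources used here. The lineage cocktail used for lin- was B220, CD3, CD4, CD8, CD41, Mac1, Gr1 and Ter119. The antibody behind the Fc receptor gate was not given either. The labels do not state that replicates came from separate animals or sorts, so p-values measure only the spread between these samples, which may be technical. In sorted populations such as these, fewer expressing cells and less RNA per cell cannot be told apart.

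Fc gamma receptors bind the constant part of IgG and couple antibody to the response of myeloid cells. The activating receptors depend on the gamma chain to reach the cell surface and to signal. Its immunoreceptor tyrosine-based activation motif (ITAM) is phosphorylated by Src family kinases and then engages the kinase Syk. Fcgr2b instead carries an inhibitory motif (ITIM) that recruits the lipid phosphatase encoded by Inpp5d. In mouse marrow, granulocyte-macrophage progenitors are commonly separated from earlier myeloid progenitors by an antibody against the products of Fcgr2b and Fcgr3.

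The sequence just before the start of each gene is shown because several members moved together over the fractions. The activating receptor genes also share the letters GAGGAA there, which the gamma chain gene lacks. The 100 bases before the start in the RefSeq promoter table (build GRCm38.p6) are given in the direction of transcription. Capitals mark GAGGAA or GGAAGT, read on either strand. Both are longer forms of GGAA, the core letters of ETS family sites, and GGAA by itself is not marked. A start listed second for Fcgr3 lies just downstream.
Fcgr1 (chr3:96293970-96294069, minus strand): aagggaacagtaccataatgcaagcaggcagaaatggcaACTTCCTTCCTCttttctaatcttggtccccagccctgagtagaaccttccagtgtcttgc
Fcgr3 (chr1:171059404-171059503, minus strand): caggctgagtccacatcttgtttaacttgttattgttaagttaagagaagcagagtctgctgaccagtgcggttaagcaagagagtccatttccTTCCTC
Fcgr4 (chr1:171018826-171018925, plus strand): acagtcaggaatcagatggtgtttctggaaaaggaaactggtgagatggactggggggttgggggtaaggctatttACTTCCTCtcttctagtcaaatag
Fcgr2b (chr1:170976072-170976171, minus strand): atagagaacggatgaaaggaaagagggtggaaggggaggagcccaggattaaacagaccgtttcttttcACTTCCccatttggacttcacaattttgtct
Fcer1g (chr1:171234350-171234449, minus strand): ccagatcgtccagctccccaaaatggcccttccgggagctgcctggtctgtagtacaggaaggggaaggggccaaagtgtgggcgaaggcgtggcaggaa
GAGGAA lay 50 to 55 bases before the start of Fcgr1, 1 to 6 before that of Fcgr3 and 17 to 22 before that of Fcgr4, in each case on the opposite strand. GGAAGT lay 56 to 61 bases before the start of Fcgr1, 26 to 31 before that of Fcgr2b and 19 to 24 before that of Fcgr4. In Fcgr4 both overlapped as GAGGAAGT. Within the 250 bases before the start, these were the only matches in the 5 genes. Fcer1g had neither of these longer forms, although the shorter GGAA occurs in its sequence above. Of 32851 such promoters, 23.3% held GAGGAA, 19.7% held GGAAGT and 2.44% held GAGGAAGT on either strand. AGATAAG, the letters of a GATA site, was in none of the 5 and in 2.74% of all. The motifs were chosen with the sequences in view. These are matches of letters, not sites. Fcgr2b, Fcgr4, Fcgr3 and Fcer1g lie in that order on chromosome 1, within a run of 11 protein-coding genes, whereas Fcgr1 is on chromosome 3.

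Levels are given below in log2 units from the 75th percentile of the array, so that 0 is the level of that percentile and 1 unit is a doubling. A probe was called changed at an adjusted p under 0.05 and at least a 2-fold change, in 1 limma fit over the 21 arrays. Levels of different genes are not set against each other, because probes differ in brightness. The probe sequences were not used here, so cross-hybridisation between the closely related receptor genes was not assessed.

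Arrays of the same fraction correlated at 0.967 to 0.99 and arrays of different fractions at up to 0.974, and each of the 21 arrays correlated best with an array of its own fraction. Between 56.2% and 77.4% of probes were well above background on an array. Sorting antigens followed the labels in part. Slamf1, which encodes CD150, was highest in PreMegE, at 0.32 ± 0.10 (SD, n = 3), and not well above background on any array of CFUe, PreGM or GMP. Ly6a, which encodes Sca1, was at 2.57 ± 0.17 in KLS and 2.10 ± 0.03 in GMP, but at -3.14 ± 0.22 in PreMegE and well above background on only 1 of 3 arrays of CFUe, although the labels give all 4 intermediate fractions as sca1+. Eng, which encodes CD105, was at 2.47 ± 0.12 in CFUe and 2.15 ± 0.09 in PreMegE, both labelled CD105-. The 7 erythroid genes were well above background on every array of PreMegE, CFUe and Ter119, with summed levels of 26.7 to 32.1, 85.0 to 95.5 and 3430 to 4390 on a linear scale where 1 is the array's 75th percentile, against 0.579 to 0.868 in GMP. On the same scale the monocyte genes summed to 91.2 to 96.8 in PreGM and 102 to 119 in GMP. The sums in these fractions were 16.8 to 41.4 and 51.9 to 59.6 for the mast cell or basophil genes. They were 0.415 to 0.505 and 30.0 to 44.5 for the eosinophil genes. For the natural killer or T cell genes they were 30.7 to 52.7 and 114 to 140. Of these 6 genes, 3 were well above background on every PreGM array and 2 on every GMP array. From PreGM to GMP, 1 of 6 monocyte, 2 of 6 mast cell or basophil and 3 of 4 eosinophil genes were called higher. Of the natural killer or T cell genes 0 of 6 were called higher and 1 lower. Some libraries stood apart from their group. KLS replicate 1 held the most macrophage transcripts, CFUe replicate 3 and PreGM replicate 3 held more granulocytic transcripts than the other arrays of their fractions, and the values are given beside the members they moved with.

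**Figure D1:**
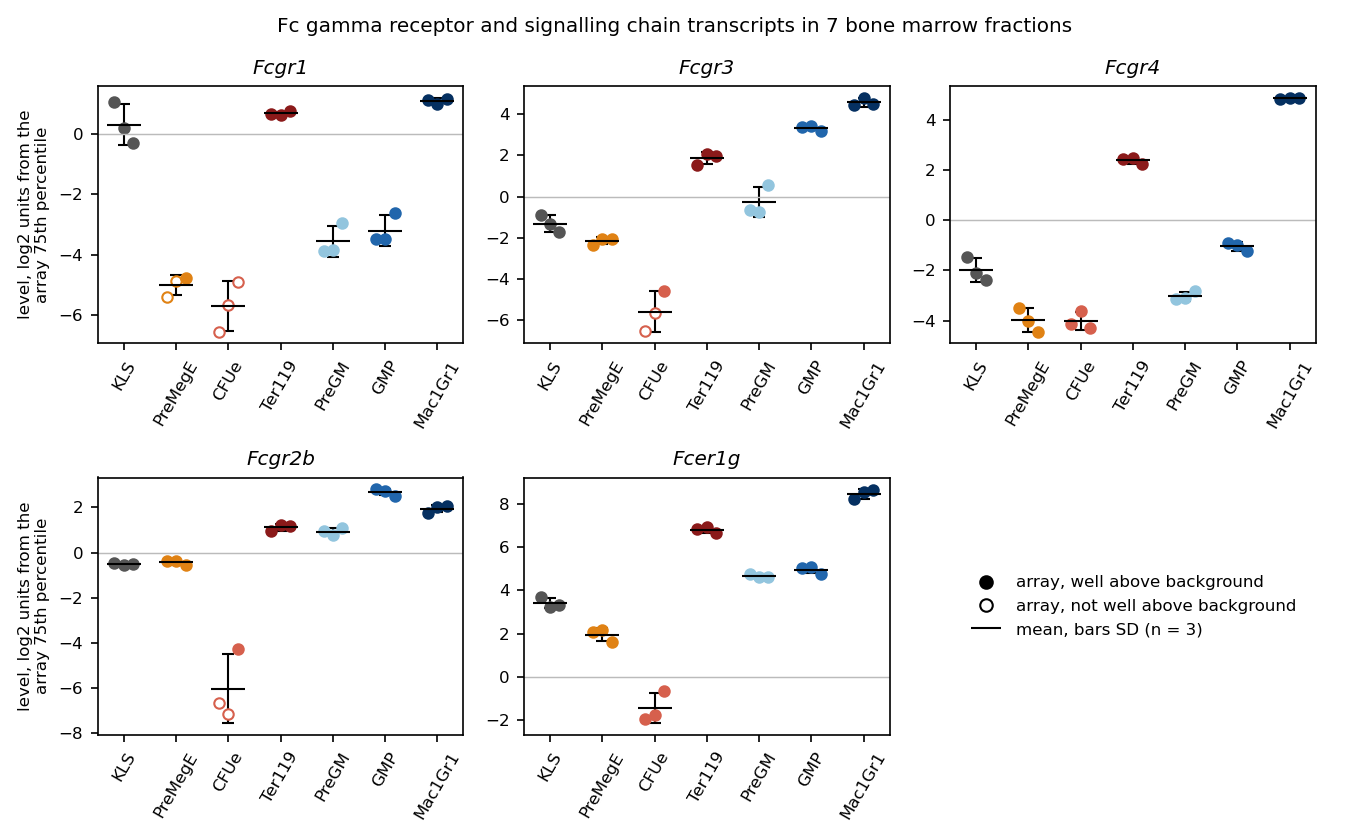
Level of each member on each of the 21 arrays, by fraction (x axis), in log2 units from the array's 75th percentile (y axis, a separate scale per gene). Filled points were well above background and open points were not. Black lines are means with SD bars (n = 3). Fcer1g and Fcgr3 are lowest in CFUe and highest in Mac1Gr1, and Fcgr1 had a mean of 0.32 in KLS and of 0.69 in Ter119, a difference that was not called.

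Fcgr3, a low-affinity activating receptor, spanned 10.16 log2 units between its lowest and its highest fraction mean, of which the lowest was near background. It was at -0.89, -1.34 and -1.73 on the 3 KLS arrays and at -2.34, -2.05 and -2.05 in PreMegE. CFUe was lowest, at -6.55, -5.64 and -4.59, and only replicate 3 of CFUe was well above background. Ter119 was back at 1.53, 2.06 and 1.98. On the myeloid side the gene was at -0.67, -0.73 and 0.54 in PreGM, at 3.38, 3.41 and 3.19 in GMP, and at 4.43, 4.80 and 4.47 in Mac1Gr1. No array of GMP or Mac1Gr1 overlapped with any other fraction. The neighbours in the order Mac1Gr1, GMP, Ter119 and PreGM each differed and were called, by 1.24 to 2.14 on the log2 scale, whereas PreGM against KLS (1.04, SE 0.39, adjusted p = 0.063) and KLS against PreMegE (0.82, SE 0.39, adjusted p = 0.139) were not called.

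Fcgr4, an activating receptor of intermediate affinity, was well above background on all 21 arrays. It was at 4.82, 4.85 and 4.88 in Mac1Gr1 and at 2.42, 2.49 and 2.23 in Ter119. GMP followed at -0.90, -0.98 and -1.24, and KLS at -1.48, -2.09 and -2.38. The lowest levels were -3.14, -3.11 and -2.81 in PreGM, -3.48, -4.01 and -4.43 in PreMegE, and -4.12, -3.63 and -4.31 in CFUe. No arrays overlapped between GMP and any of the 3 receptor-negative progenitors, and PreMegE and CFUe did overlap and differed by 0.05 (SE 0.24, adjusted p = 0.879). Mac1Gr1 was separated from Ter119 by 2.47 and Ter119 from GMP by 3.42, both called. GMP lay above KLS by 0.94 (adjusted p = 0.00377) and PreGM above PreMegE by 0.96 (adjusted p = 0.00617), both short of a 2-fold change.

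Fcgr1, the high-affinity IgG receptor, had a different order. It was at 1.15, 1.0 and 1.18 in Mac1Gr1, at 0.67, 0.64 and 0.76 in Ter119 and at 1.06, 0.19 and -0.30 in KLS. These 3 fractions did not differ beyond the threshold from their neighbours in the order (Mac1Gr1 above Ter119 by 0.42, adjusted p = 0.359, and Ter119 above KLS by 0.38, adjusted p = 0.397). All others were far lower: -3.48, -3.49 and -2.62 in GMP, -3.88, -3.83 and -2.96 in PreGM, -5.40, -4.87 and -4.79 in PreMegE, and -6.56, -5.67 and -4.91 in CFUe. Only replicate 3 of PreMegE and none of the CFUe arrays was well above background. KLS was above GMP by 3.51 on the log2 scale (adjusted p = 1.37e-06), although GMP was the fraction labelled as receptor-positive. Whether the antibody of the gate bound the product of Fcgr1 was not given. PreGM was above PreMegE, with 1 of 3 PreMegE arrays well above background, by 1.46 (adjusted p = 0.00916), and PreMegE and CFUe, near background, did not differ beyond the threshold (0.69, adjusted p = 0.15).

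Over the 3 KLS arrays, Fcgr1 followed the order of macrophage transcripts. All 11 macrophage genes with a probe were well above background on every KLS array, and their summed level, on a linear scale where 1 is the array's 75th percentile, was 73.0 in KLS replicate 1, 41.2 in replicate 2 and 26.2 in replicate 3. Fcgr1, Fcgr3 and Fcgr4 followed that order over the 3 KLS arrays, and Fcgr2b and Fcer1g did not. The summed level was 0.520 to 1.17 in PreMegE, 0.475 to 0.700 in CFUe, 0.964 to 1.14 in PreGM, 7.50 to 8.75 in GMP, 9.33 to 10.4 in Ter119 and 18.5 to 21.7 in Mac1Gr1. Of the 11 genes, 5 were well above background on every PreMegE array, 2 on every CFUe array and 7 on every PreGM array. Not well above background on any array were 2 in PreMegE, 6 in CFUe and 2 in PreGM, with Mrc1 and Timd4 among them each time. The 6 monocyte genes, all well above background on every KLS array, had sums in the same order over KLS replicates 1 to 3 (13.8, 11.4 and 11). The part of macrophage or monocyte transcripts in the KLS level of the receptors was not tested.

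Fcgr2b, the inhibitory receptor, was highest in GMP, at 2.79, 2.71 and 2.52, and next in Mac1Gr1, at 1.75, 2.01 and 2.05. Ter119 was at 0.94, 1.21 and 1.19 and PreGM at 0.93, 0.78 and 1.07. KLS, at -0.47, -0.56 and -0.50, and PreMegE, at -0.39, -0.37 and -0.56, overlapped, and differed by 0.07 (SE 0.45, adjusted p = 0.933). CFUe was at -6.64, -7.14 and -4.28, with only replicate 3 well above background. GMP lay above Mac1Gr1 on every array, but the difference of 0.73 was not called (adjusted p = 0.149). The fit shares its estimate of the spread over all fractions. The SD of this probe was 1.53 in CFUe, against 0.13 in GMP and 0.16 in Mac1Gr1, so its p-values between other fractions carry the spread of CFUe. Mac1Gr1 less GMP was -0.76 (SE 0.15, adjusted p = 0.000201) by the second probe and -0.19 (SE 0.15, adjusted p = 0.261) by the third, both short of 2-fold. On this scaling Fcgr2b was the only member whose mean was higher in GMP than in Mac1Gr1.

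The 3 probes of Fcgr2b gave GMP, Mac1Gr1, Ter119 and PreGM as the highest fractions in the same order, and correlated with each other at 0.977 to 0.994 over the 21 arrays, which share their libraries and their 7 fractions. They differed in CFUe. The fall from PreMegE to CFUe was 5.58 (SE 0.45) on the log2 scale by the brightest probe, 3.37 (SE 0.15) by the second and 4.01 (SE 0.15) by the third, which had no CFUe array well above background and gives a fold of at least 6.33. The second probe was well above background on 2 of the 3 CFUe arrays and the brightest on 1. From PreGM to GMP the rise was 1.75 (SE 0.45), 1.71 (SE 0.15) and 1.52 (SE 0.15), and was called by each probe.

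**Figure D2:**
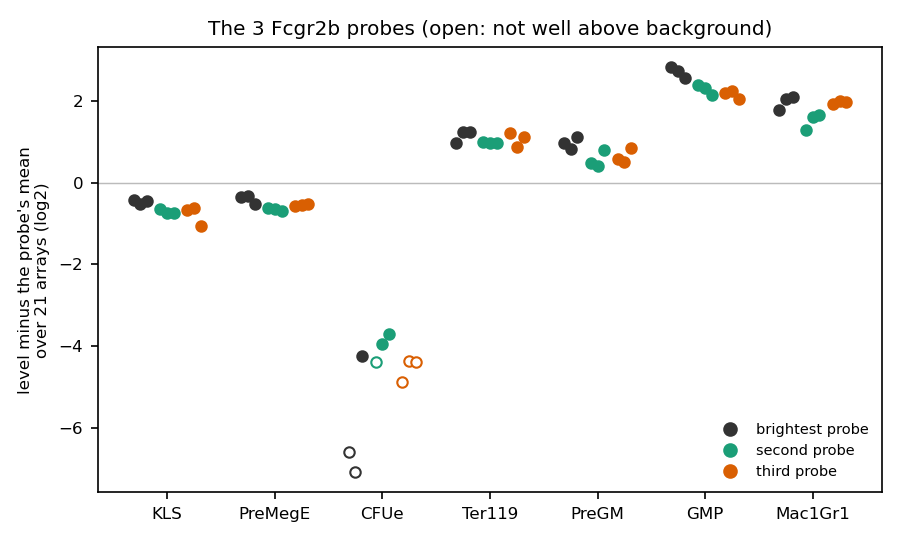
Level of the 3 Fcgr2b probes on each array, by fraction (x axis), as the difference from each probe's own mean over the 21 arrays in log2 units (y axis). Filled points were well above background and open points were not. GMP is highest and CFUe lowest by each probe, with the widest gap between probes in CFUe.

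Fcer1g, the gamma chain through which the activating receptors signal, was well above background on all 21 arrays. It was at 8.22, 8.53 and 8.63 in Mac1Gr1, at 6.84, 6.91 and 6.65 in Ter119, at 5.02, 5.08 and 4.77 in GMP and at 4.77, 4.62 and 4.60 in PreGM. KLS was at 3.68, 3.24 and 3.30, PreMegE at 2.07, 2.15 and 1.60 and CFUe at -1.96, -1.75 and -0.67. All neighbours in this order differed and were called except GMP and PreGM, whose ranges met at 4.77 and which differed by 0.29 (SE 0.25, adjusted p = 0.459).

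The gate on Fc gamma receptors was addressed by comparing GMP with PreGM. Because the fractions were sorted by Fc gamma receptors, the signs are not independent evidence. For genes whose products the antibody bound, they check the sort. Which genes these were was not given, and Fcer1g encodes the signalling chain. Fcgr3 was 12.2-fold higher in GMP (log2 change 3.61, SE 0.39, adjusted p = 3.3e-06), Fcgr4 3.93-fold (1.98, SE 0.24, adjusted p = 1.09e-05) and Fcgr2b 3.36-fold (1.75, SE 0.45, adjusted p = 0.00823). In each of these 3 genes, every GMP array lay above every array of the 3 receptor-negative progenitors. Fcgr1 and Fcer1g were not called, with differences of 0.36 (SE 0.39, adjusted p = 0.559) and 0.29 (SE 0.25, adjusted p = 0.459), and their GMP and PreGM arrays overlapped. Thus 3 of 5 members were called higher in GMP, where 10.4% of all tested probes were called and 4.01% were called higher. When arrays were scaled on the spike-in RNAs, the median of all tested probes moved up by 1.01 on the log2 scale and Fcgr1 (1.38) and Fcer1g (1.30) were called too. Relative to that median they were at 0.38 and 0.31, which is the same on the main scaling because both scalings subtract a constant per array. On the 1 slide that held arrays of both fractions, the differences were 4.05 for Fcgr3, 2.23 for Fcgr4, 1.86 for Fcgr2b, 0.40 for Fcgr1 and 0.24 for Fcer1g.

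PreGM replicate 3 had a higher Fcgr3 (0.54) and Fcgr1 (-2.96) than the other arrays of its fraction. The median level of the 10 granulocytic genes was 1.53 on that array, against -1.22 and -1.49 on the others, and their summed level was 744 against 662 and 623, and 1030 to 1140 in GMP. All 10 were well above background on every PreGM and GMP array. PreGM replicate 3 also had the highest sum of mast cell or basophil genes (41.4 against 19.4 and 16.8) and of natural killer or T cell genes (52.7 against 35 and 30.7). Its monocyte sum lay between those of the others (92.9 against 96.8 and 91.2). Without that array the Fcgr3 difference was 4.03 and the count of called members was again 3. The part of these marker transcripts in the levels of PreGM was not tested.

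Against the mean of all 3 receptor-negative progenitors, all 5 members were called higher in GMP, where 16.4% of all tested probes were called and 8.56% were called higher. The differences on the log2 scale were 6.00 (SE 0.32) for Fcgr3, 4.52 (SE 0.37) for Fcgr2b, 3.24 (SE 0.21) for Fcer1g, 2.63 (SE 0.20) for Fcgr4 and 1.57 (SE 0.32) for Fcgr1. The receptor-negative fractions were far apart among themselves: the lowest array was at -7.14 and the highest at 1.07 for Fcgr2b, and at -6.55 and 0.54 for Fcgr3. The call of Fcgr1 rested on arrays near background and was lost with another background correction (normexp), at 0.34 (adjusted p = 0.11). Fcgr4 was at 1.60 with it and was called again.

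On the erythroid side, the step from KLS to PreMegE lowered 3 of 5 members, where 12.4% of all tested probes were called and 8.86% were called lower. Fcgr1 fell by 5.34 on the log2 scale (SE 0.39, adjusted p = 1.84e-08), Fcgr4 by 1.99 (SE 0.24, adjusted p = 6.35e-06) and Fcer1g by 1.47 (SE 0.25, adjusted p = 0.00028). Without KLS replicate 1, which held the most macrophage transcripts, Fcgr1 fell by 4.96 and Fcgr4 fell by 1.74, and both were called again. With normexp they fell by 3.32 and 1.08 and were called. No slide held arrays of both fractions, and with slide as a block in the fit of all arrays Fcer1g was not called (-1.09, SE 0.33, adjusted p = 0.069), which left 2 of 5 members.

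From PreMegE to CFUe, 3 of 5 members fell, where 24.7% of all tested probes were called and 14.7% were called lower. Fcgr2b, at 5.58, is described above. Fcgr3, with 1 of 3 CFUe arrays well above background, fell by 3.45 (SE 0.39, adjusted p = 1.45e-06). Fcer1g, well above background on every array, fell by 3.40 (SE 0.25, adjusted p = 1.09e-08), or 10.6-fold. With normexp the changes were -1.21 for Fcgr3, -2.67 for Fcgr2b and -2.96 for Fcer1g, all called. Fcgr4 (-0.05) was not called, and neither was Fcgr1 (-0.69), which was near background in both. CFUe replicate 3 was the highest CFUe array for Fcgr1, Fcgr2b, Fcgr3 and Fcer1g. The summed level of the granulocytic genes was 41.2 on it, against 5.89 and 5.34 on the others, with 7 of the 10 well above background on all CFUe arrays. Also highest on it were the sums of monocyte (1.09 against 0.206 and 0.263), B cell (1.06 against 0.327 and 0.473), mast cell or basophil (0.833 against 0.415 and 0.441) and natural killer or T cell genes (3.38 against 0.926 and 1.19). Of these lists, 1 of 6, 3 of 8, 3 of 6 and 2 of 6 genes were well above background on all CFUe arrays. The macrophage and eosinophil sums were not highest on it, with 2 of 11 and 0 of 4 genes well above background on all CFUe arrays. By the median level, the macrophage genes were highest on it (-5 against -6.47 and -5.48). The natural killer or T cell genes were not (-4.61 against -4.81 and -3.96). Without CFUe replicate 3 the changes were -6.45 for Fcgr2b, -3.95 for Fcgr3 and -3.8 for Fcer1g, and Fcgr1 was called as well (-1.09, adjusted p = 0.0273). The part of these marker transcripts was not tested.

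From CFUe to Ter119 all 5 members rose, where 57.2% of all tested probes were called and 29.2% were called higher. Fcer1g rose 307-fold (log2 change 8.26, SE 0.25, adjusted p = 3.12e-14) and Fcgr4 by 6.40 (SE 0.24). Fcgr3 rose by 7.45 (SE 0.39) and Fcgr2b by 7.13 (SE 0.45), each with 1 of 3 CFUe arrays well above background, and with normexp these values were 4.57 and 4.0, both called. The second Fcgr2b probe rose by 5.0, and the third was at least 19.3-fold higher in Ter119. Fcgr1 was at least 45.8-fold higher in Ter119, a bound because no CFUe array was well above background (adjusted p = 1.19e-10), and with normexp the log2 difference was 3.44, called again. Markers of other cell types moved with these genes. The granulocytic genes, all 10 well above background on every array, summed to 4320 to 5490 in Ter119, against 4620 to 5240 in Mac1Gr1. The B cell genes were all 8 well above background on every Ter119 array and summed to 99.8 to 143, against 24.3 to 43.1 in Mac1Gr1, where 7 of 8 were, and 0.327 to 1.06 in CFUe. Itgam, which encodes Mac1, was at 3.02 ± 0.35 in Ter119, 5.16 ± 0.21 in Mac1Gr1, and at background level on all 3 CFUe arrays. The labels name no lineage exclusion for Ter119, and the part of such cells in its receptor transcripts was not tested. On the 1 slide with both fractions, the differences were 6.35 to 8.61.

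**Figure D3:**
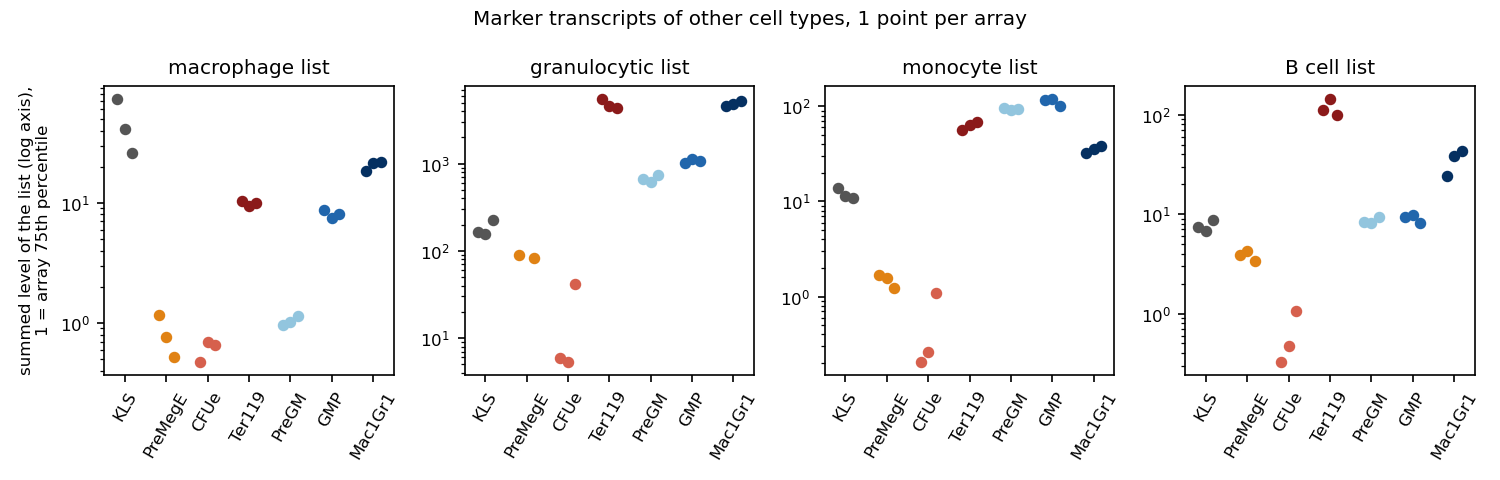
Summed level of 4 marker lists on each array (y axis, log scale, where 1 is the array's 75th percentile) by fraction (x axis), 1 point per array. A PreMegE array with a discarded Mpo spot is left out of the granulocytic panel. KLS has the highest macrophage sum, 26.2 to 73.0, and the granulocytic sums of Ter119 overlap with those of Mac1Gr1.

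On the myeloid side, the step from KLS to PreGM raised Fcgr2b (1.43, SE 0.45, adjusted p = 0.0273) and Fcer1g (1.26, SE 0.25, adjusted p = 0.00166) and lowered Fcgr1 (-3.87, SE 0.39, adjusted p = 2.34e-06) and Fcgr4 (-1.04, SE 0.24, adjusted p = 0.0045). These were 4 of 5 members, where 8.64% of all tested probes were called, 2.11% higher and 6.53% lower. The calls of Fcgr2b, Fcgr4 and Fcer1g depended on the setting. Fcer1g was not called on spike-in scaling (0.64, adjusted p = 0.102), where Fcgr2b was not called either (0.82, adjusted p = 0.145) and the median of all tested probes moved by -0.62, nor in the deposited series table (0.99, adjusted p = 0.00678, which is less than 2-fold). The Fcgr2b call was lost whenever any 1 array of KLS or PreGM was left out (1.36 to 1.51, adjusted p = 0.0539 to 0.0763). Fcgr4 fell short of 2-fold without KLS replicate 1 (-0.78, adjusted p = 0.0294), PreGM replicate 1 (-0.98) or PreGM replicate 2 (-0.99). The same held under quantile scaling (-0.87), with normexp (-0.62) and in the series table (-0.93). Fcgr2b was called by the second probe (1.28, SE 0.15) and by the third (1.42, SE 0.15). With slide as a block Fcgr2b (2.02, adjusted p = 0.0756) and Fcgr4 (-1.14, adjusted p = 0.0549) were not called, and no slide held arrays of both fractions. This step and that to PreMegE share the KLS arrays.

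From GMP to Mac1Gr1, 4 members rose, where 56.7% of all tested probes were called and 29.1% were called higher. Fcgr4 rose 59.4-fold (5.89, SE 0.24, adjusted p = 7.22e-13), Fcgr1 19.7-fold (4.30, SE 0.39, adjusted p = 2.19e-08), Fcer1g 11.4-fold (3.51, SE 0.25, adjusted p = 1.09e-09) and Fcgr3 2.37-fold (1.24, SE 0.39, adjusted p = 0.00869). Fcgr2b was at -0.73 (adjusted p = 0.149). The call of Fcgr3 was lost under quantile scaling (0.99), with slide as a block (0.67, adjusted p = 0.274) and in the deposited series table (0.90, adjusted p = 0.0869), and its sign turned on spike-in scaling (-0.79, adjusted p = 0.0751), where the median of all tested probes moved by -2.03. Fcgr3 thus had its largest myeloid rise at the gate, and Fcgr4, Fcgr1 and Fcer1g theirs after it. The 2 steps share the GMP arrays. Marker lists moved in both directions at the step to Mac1Gr1. The B cell genes summed to 8.21 to 9.75 in GMP and 24.3 to 43.1 in Mac1Gr1, with 8 of 8 called higher, and the macrophage genes to 7.50 to 8.75 and 18.5 to 21.7, with 9 of 11 called higher. The granulocytic genes summed to 1030 to 1140 and 4620 to 5240, with 7 of 10 called higher and 3 lower. The monocyte genes went from 102 to 119 in GMP to 32.6 to 38.3 in Mac1Gr1, with 0 of 6 called higher and 3 lower. The eosinophil genes went from 30.0 to 44.5 to 8.27 to 14, with 0 of 4 called higher and 3 lower. The part of these marker transcripts in the receptor levels was not tested, and no slide held arrays of both fractions.

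**Figure D4:**
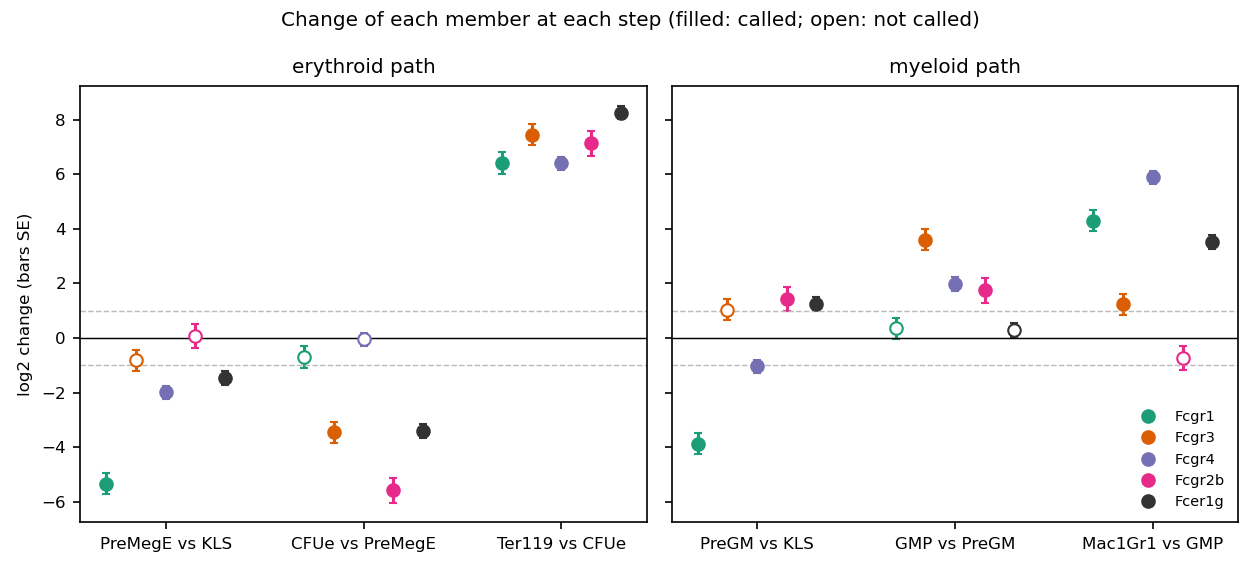
Log2 change of each member with SE bars (y axis) at the 3 erythroid steps (left) and the 3 myeloid steps (right). Filled points were called and open points were not; dashed lines mark a 2-fold change. The members fall or stay below the threshold up to CFUe and all rise at Ter119, while on the myeloid side Fcgr2b, Fcgr3 and Fcgr4 rise into GMP and all but Fcgr2b rise into Mac1Gr1.

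The lineages were then compared at the same position. In PreMegE against PreGM, both labelled receptor-negative, 4 of 5 members were called lower, where 12% of all tested probes were called and 6.23% were called lower. The differences were -2.72 (SE 0.25) for Fcer1g, -1.86 (SE 0.39) for Fcgr3, -1.46 (SE 0.39) for Fcgr1 and -1.37 (SE 0.45, adjusted p = 0.0317) for Fcgr2b, and Fcgr4 was just under 2-fold, at -0.96 (adjusted p = 0.00617). The Fcgr2b call was lost whenever any 1 array of either fraction was left out, with adjusted p of 0.0602 to 0.0864, but was made by the second probe (-1.22) and by the third (-1.19). It was also lost on spike-in scaling (-1.21, adjusted p = 0.0551), with slide as a block (-1.01, adjusted p = 0.184) and in the series table (-1.41, adjusted p = 0.0604). The Fcgr1 call was lost with normexp (-0.54, adjusted p = 0.0752). Within the 2 slides that held both fractions all 5 differences were negative.

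In CFUe against GMP all 5 members were called lower, where 26.3% of all tested probes were called and 14.2% were called lower. Fcgr3 was lower by 8.92 on the log2 scale and Fcgr2b by 8.69, and both had only 1 CFUe array well above background. By the other probes of Fcgr2b the fall was 6.30 and 6.71. Fcer1g was lower by 6.41 and Fcgr4 by 2.98. Fcgr1 was at least 3.1-fold higher in GMP by the bound, but with normexp its call was lost (-0.41, adjusted p = 0.105). With normexp Fcgr2b was at -5.63 and Fcgr4 at -1.62, both called. No slide held arrays of both fractions.

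In Ter119 against Mac1Gr1, 3 of 5 members were called lower, where 41.9% of all tested probes were called and 19.9% were called lower. Fcgr3 was lower by 2.72 (SE 0.39, adjusted p = 1.17e-05), Fcgr4 by 2.47 (SE 0.24, adjusted p = 1.18e-07) and Fcer1g by 1.66 (SE 0.25, adjusted p = 2.08e-05). Fcgr1 (-0.42) and Fcgr2b (-0.82) were not called. No slide held arrays of both fractions.

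The difference between the lineages was also tested directly. At the second step, the erythroid change (CFUe against PreMegE) less the myeloid change (GMP against PreGM) was called lower for 4 of 5 members, where 20.2% of all tested probes were called and 11.8% were called lower. At the third step (Ter119 against CFUe less Mac1Gr1 against GMP), it was called higher for 4 of 5, where 39.9% were called and 20.9% were called higher. Both contrasts use the same CFUe arrays near background for Fcgr1, Fcgr2b and Fcgr3, and the values are given in the closing section.

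The other genes of the pathway were taken from 6 lists (other Fc receptors, partners of the gamma chain, other ITAM adaptors, ITAM kinases, downstream signalling and inhibitory signalling), of which 44 genes were tested. The list of other ITAM adaptors includes Hcst, an adaptor that has no ITAM. At the gate, GMP against PreGM, 5 of 44 fell and 13.6% were called in either direction, beside 10.4% of all tested probes. The 44 had a median change of 0.00, beside 3 of 5 members that rose with a median of 1.75 and a median of all tested probes of -0.02. Those that fell most were Blnk, an adaptor downstream of Syk (-2.67, SE 0.22), and Lat2, an adaptor of the same kind (-1.57, SE 0.23). Fcgrt, the neonatal Fc receptor that salvages IgG, fell by 1.14 (SE 0.35). The 6 genes on the list of other ITAM adaptors had a median change of -0.06.

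From PreMegE to CFUe, 22 of the 44 fell and 1 rose (52.3% called, beside 24.7% of all tested probes), with a median of -0.88 against 0.12 for all tested probes. Of the ITAM kinases 3 of 5 fell, among them Syk (-3.19, SE 0.25), and of downstream signalling 8 of 13 fell, among them Lcp2, which encodes the adaptor SLP-76 (-5.16, SE 0.42). Clec4e, a C-type lectin receptor that signals through the gamma chain, was at least 18.5-fold higher in PreMegE, since no CFUe array was well above background for it (adjusted p = 1.43e-10). Blnk was the gene that rose (3.05, SE 0.22). Of the inhibitory list only Dok2 fell (-5.41, SE 0.45). From CFUe to Ter119, 37 of 44 rose (84.1%, beside 57.2% of all tested probes called and 29.2% called higher), with a median of 3.59 against 0.05. They included all 6 genes on the list of other ITAM adaptors and all 7 tested partners of the gamma chain. Tyrobp, the adaptor of myeloid activating receptors, rose by 10.58 (SE 0.64), with 2 of 3 CFUe arrays well above background. Of the 8 other Fc receptors 7 rose, 6 of them from CFUe arrays that were not well above background. Among these was Fcrla, a B cell gene, which was at least 278-fold higher in Ter119 (adjusted p = 3.33e-15), beside the B cell transcripts given above.

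From GMP to Mac1Gr1, 29 of 44 rose and 1 fell (68.2% called, beside 56.7% of all tested probes), with a median of 1.72 against 0.17 for all tested probes. Fgr, a Src family kinase of mature myeloid cells, rose by 9.05 (SE 0.28), and 4 of 5 ITAM kinases rose. Of the inhibitory list 4 of 6 rose, the most Dok2 (2.82, SE 0.45), and the phosphatase gene Inpp5d rose by 1.39 (SE 0.12) while Fcgr2b itself was at -0.73. Among the partners of the gamma chain 3 of 7 rose, the most Clec4d (5.23, SE 0.39), and Ms4a2, the beta chain of the IgE receptor, fell by 1.75 (SE 0.38), with 2 of 3 Mac1Gr1 arrays well above background. In Ter119 against Mac1Gr1, 14 of 44 were higher and 22 lower (81.8% called, beside 41.9% of all tested probes), with a median of -0.94 against 0.06. Among them 9 of 13 downstream genes and 4 of 5 ITAM kinases were lower, whereas 4 of 8 other Fc receptors were higher, among them Fcrla (2.29, SE 0.25).

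From KLS to PreMegE 2 of the 44 rose and 12 fell (31.8% called, beside 12.4% of all tested probes), with a median of -0.23 against 0.13. From KLS to PreGM 3 rose and 7 fell (22.7% called, beside 8.64%), with a median of 0.10 against 0.06. Fcgrt fell by 3.98 (SE 0.35) and by 2.64 (SE 0.35) at these steps, in the same direction as Fcgr1, and Ms4a2 was at least 8.13-fold higher in PreGM than in KLS, where no array was well above background (adjusted p = 1.2e-05). The 6 genes on the list of other ITAM adaptors had a median change of 0.24 from KLS to PreGM, where Fcer1g rose by 1.26. In GMP against the 3 receptor-negative progenitors, 13 of 44 were higher and 1 lower (31.8% called, beside 16.4% of all tested probes), and Tyrobp was higher by 5.08 (SE 0.52).

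**Figure D5:**
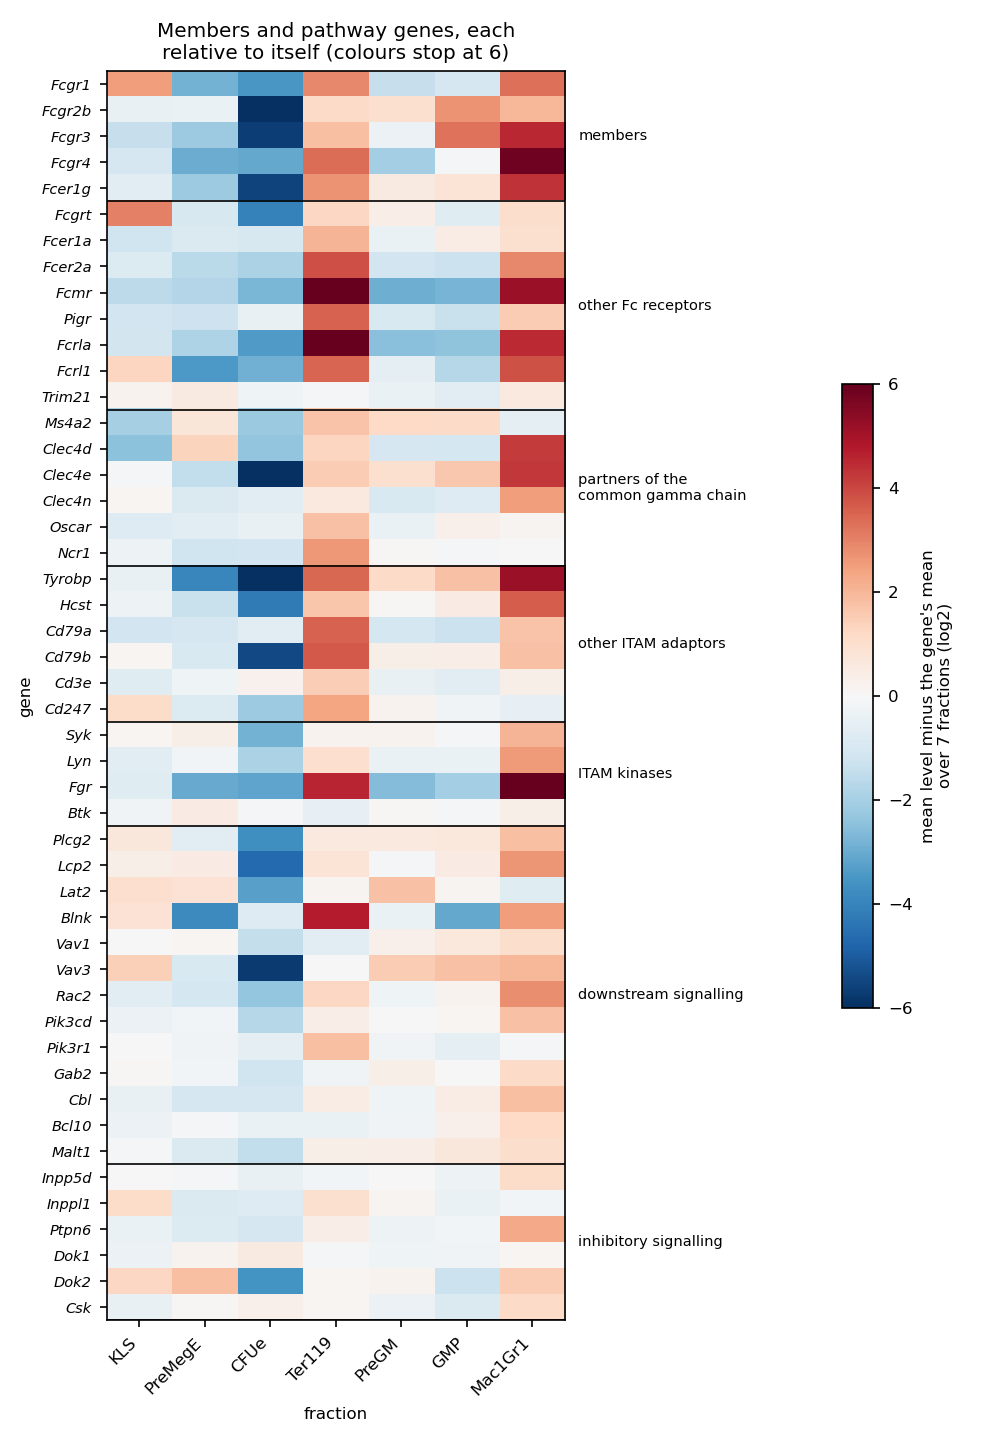
Mean level of each member and of tested pathway genes (rows, grouped by list) in the 7 fractions (columns), as the difference from the gene's own mean over the fractions in log2 units, with colours that stop at 6. Fcer1a, in 2 lists, is drawn once. CFUe is the lowest column for the 5 members, with Fcgr4 at nearly the same mean in PreMegE (-4.02 and -3.97 as levels), and Mac1Gr1 is the highest for all but Fcgr2b, which is highest in GMP.

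Among the members, levels over the 21 arrays were most alike for Fcgr3 and Fcer1g (Pearson r = 0.939) and for Fcgr2b and Fcgr3 (0.903), and least for Fcgr1 and Fcgr2b (0.542). Among all other genes, the probes most like Fcer1g were those of Rogdi (0.994), Ckap4, Hcst (both 0.991), Ncf1 and Ncf4 (both 0.99); Hcst encodes a signalling adaptor and the last 2 encode subunits of the phagocyte oxidase. For Fcgr3 they were App (0.987), Tcn2 (0.986), Ubtd1, Ly6c1 and Scnn1a (each 0.985). For Fcgr4 they were Mocos and Mapk13 (both 0.992), Prkcb (0.991), Inhba (0.988) and Cd300lf (0.987). For Fcgr2b they were Napsa and Serpinb1a (both 0.977), Serpinb1c (0.971), Spata13 (0.967) and Anxa5 (0.965), and for Fcgr1 Sulf2 (0.979), Tmem51 (0.957), Adgre4 (0.956), Maf (0.954) and Ephx1 (0.953). The points are 21 arrays in 7 fractions, so these values describe mainly the 7 means.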

How the data were processed

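Total RNA of 7 sorted bone marrow fractions (3 arrays each) was hybridised by the authors to one-colour Agilent arrays and scanned. The deposited intensities came from Agilent Feature Extraction 10.7.1.1, background-subtracted by the authors' software (annotation build mm9). A deposited series table of log2 values, normalized by the authors, served as an alternative, and its rank correlation with the scanner values was 0.9998 to 1 per array. Outlier spots (80 to 283 per array) and control spots were left out, spots of a probe averaged, and log2 intensities set relative to each array's 75th percentile. No spot was saturated. Of 41174 probes, 64.8% had a symbol, matched through RefSeq accessions. A probe was tested where a fraction had it well above background on its 3 arrays (29532 probes), in 1 limma 3.58.1 fit (R 4.3.3) with a mean per fraction, 14 residual degrees of freedom, and Benjamini-Hochberg adjustment over all of them. Precision is limited by the number of arrays. A bound ("at least") sets the higher of the probe's signal and the array's lowest signal well above background for the dim fraction.

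The members, the lists and the rule for named genes (the members; the 1 or 2 genes of a pathway list that rose or fell most; the 5 most alike genes) were chosen with earlier results of these data known. Inpp5d was named for its role, and Slamf1, Ly6a, Eng and Itgam as sorting antigens. Kit, Ly6g, Card9, Cd68, Fcrlb, Fyn and Hbb-b1 were unmatched, and Fcamr, Fcrl5 and Gp6 were not tested. One pathway gene, included in the counts, is not reported here. In addition to the 6 pathway lists, 9 marker lists were summed. The test was checked on simulated data.

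Alternatives were quantile, spike-in (7 of 10 spike-in probes) and normexp processing, other filters, slide and replicate blocks, the series table, fits of only the fractions compared and without each array in turn. Deviations of 63 same-number pairs of arrays correlated at -0.597 to 0.368, with a median of 0.00717 and 15 pairs over 0.1. The median of 126 other pairs was -0.00552. These values do not exclude that some arrays of equal replicate number were paired.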

Additional observations from a re-analysis of the deposited data

Results flagged for a closer look

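The changes of several members differed between the lineages at the same step, by a test of the difference itself in limma. At the second step, the erythroid change (PreMegE to CFUe) less the myeloid change (PreGM to GMP) was -7.33 on the log2 scale for Fcgr2b (SE 0.64, adjusted p = 2.01e-07), -7.06 for Fcgr3 (SE 0.55, adjusted p = 6.21e-08), -3.69 for Fcer1g (SE 0.36, adjusted p = 6.21e-07) and -2.03 for Fcgr4 (SE 0.34, adjusted p = 0.000189). For Fcgr2b and Fcgr3 the arms had opposite signs. For Fcer1g and Fcgr4 only 1 arm was called. Fcgr1 was at -1.06 (adjusted p = 0.155).

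At the third step, the erythroid change (CFUe to Ter119) less the myeloid change (GMP to Mac1Gr1) was 7.87 for Fcgr2b (SE 0.64, adjusted p = 2.64e-08), 6.21 for Fcgr3 (SE 0.55, adjusted p = 8.28e-08), 4.76 for Fcer1g (SE 0.36, adjusted p = 1.06e-08) and 2.10 for Fcgr1 (SE 0.55, adjusted p = 0.00379). Fcgr4 was at 0.51 (adjusted p = 0.218). The Fcgr1 value rests on CFUe arrays that were not well above background. By the second and the third probe of Fcgr2b the values were -5.08 and -5.53 at the second step and 5.75 and 5.81 at the third. With normexp the second-step values were -4.38 for Fcgr2b, -4.67 for Fcgr3 and -1.16 for Fcgr4, and the third-step values 4.79 for Fcgr2b and 3.41 for Fcgr3, all called, while the third-step call of Fcgr1 was lost. Granulocytic and B cell transcripts were present in Ter119, as given above, and their part was not tested.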

How the results depend on the processing

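Each of 72 results was recomputed under the alternatives, which gave 1422 values. Of the members' changes 1119 stayed called in the same direction or stayed uncalled, 34 lost and 18 gained a call, and 2 called changes turned. A change of sign between uncalled values was not counted as turned. Examples with normexp were Fcgr4 at the third step (0.51 to -0.91) and Fcgr1 from PreMegE to CFUe (-0.69 to 0.17). Of the counts of called members 241 stayed within 1.5 times. The count for PreGM against KLS was 4 and fell to 2 on spike-in scaling, 2 with slide as a block and 1 in the series table, and was 2 to 3 when 1 array was left out (2 without KLS replicate 1, PreGM replicate 1 or PreGM replicate 2). On spike-in scaling it rose to 5 for GMP against PreGM, where Fcgr1 was at 1.38 and Fcer1g at 1.30, and to 5 for Ter119 against Mac1Gr1. That scaling moved the median of all tested probes by -2.03 to 1.08, and the share of calls that were higher from 24.4% to 52.6% over the comparisons to 1.84% to 96.5% (96.5% against 38.6% for GMP against PreGM). Members relative to the median moved by at most 0.01. This was fixed in advance, because both scalings subtract a constant per array, and says nothing about which scaling is right. Normexp moved that share by over 10 points for Mac1Gr1 against GMP (62.1% against 51.3%) and for the second step (51.5% against 41.4%). The 2 called changes that turned were Fcgr3 in Mac1Gr1 against GMP on spike-in scaling (-0.79) and Fcgr1 at the third step with normexp (-0.03). The cause was not tested. With the replicate number as a block, no call of a member changed (4 members for PreGM against KLS, 3 for GMP against PreGM), and the calls over all probes for GMP against PreGM went from 3061 to 3055. The 3 alternatives with other Fcgr2b probes, without all CFUe arrays, and without CFUe replicate 3 and PreGM replicate 3 together were chosen after seeing the data. Without CFUe, Fcgr3 was called from KLS to PreGM (1.04, adjusted p = 0.016). Only 2 members were above background on all arrays, so no count was made under that filter. Signal over background limits Fcgr1, Fcgr2b and Fcgr3 in CFUe and Fcgr1 in PreMegE.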
